A study of Mus musculus with 16 samples.

Results

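A set of 9 complement genes was followed in oligodendrocyte preparations from the mouse brain: C1qa, C1qb and C1qc, C3, the receptors C3ar1, C5ar1, Itgam and Itgb2, and the inhibitor Serping1. They were taken by symbol from the gene count table, where the 9 symbols matched 10 of 53801 entries, because Itgam occurred under 2 gene IDs. All 10 passed the filter on low counts. The libraries were made from poly(A) RNA of cells isolated by magnetic sorting from perfused brains of male mice, 4 libraries per group and 16 in all. The 4 groups were App NL-G-F/NL-G-F homozygotes fed a high-fat diet (App_HFD), the same homozygotes fed a control diet (App_NCD), wild-type C57BL/6J Jcl mice on the high-fat diet (WT_HFD) and wild-type C57BL/6J Jcl mice on the control diet (WT_NCD). The high-fat diet (D12492) gave 60.0% of its energy as fat and 524 kcal per 100 g, and the control diet (CE-2) gave 12.5% and 345.0 kcal per 100 g. Both were fed for 6 months from 2 months of age, and brains were taken at 8 months. The homozygotes carry a knock-in in the endogenous App gene that holds a humanized amyloid-β sequence with the Swedish, Beyreuther/Iberian and Arctic mutations. They were bred as an inbred line, whereas the wild-type mice were bought from a supplier, so genotype and source of the mice cannot be told apart. A number after a group name is the number in the library's label. The labels do not say in so many words that each library was 1 mouse, so p-values measure the spread between these libraries.

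Complement is a cascade of plasma and tissue proteins that marks surfaces for uptake by phagocytes. C1q, built from the A, B and C chains encoded by C1qa, C1qb and C1qc, starts the classical pathway, and all arms of the cascade converge on C3. Fragments of C3 and C5 are read by the G-protein coupled receptors C3aR (C3ar1) and C5aR1 (C5ar1), and C3 fragments fixed to a surface are bound by complement receptor 3, the integrin pair CD11b and CD18 (Itgam and Itgb2). C1 inhibitor (Serping1) blocks the proteases C1r and C1s. In the brain, C1q is made mainly by microglia, which also carry complement receptor 3, C3aR and C5aR1, and complement is known there for its part in the removal of synapses.

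The promoters of C1qb, C1qc and Itgam are printed because they hold the purine-rich sequence GAGGAA. They were picked for that sequence, so its presence in them is no result about genotype. C3, C3ar1 and C5ar1, whose windows lack it, also rose on at least 1 diet in the results that follow. C1qb, C1qc and C1qa lay side by side on the minus strand of chromosome 4, with 3616 bases between C1qb and C1qc and 2851 bases between C1qc and C1qa. The RefSeq table of promoters on GRCm38.p6, which runs from 250 bases before to 50 bases after each start, held 6 of the 9 members, and C1qa, Itgb2 and Serping1 are named only. Capitals mark GAGGAA on either strand and its longer form GAGGAAGT. GAGGAA is a form of the site bound by ETS family factors such as PU.1 (the myeloid master regulator encoded by Spi1). Other forms of that site were neither searched nor marked, so a window without GAGGAA may hold them. The windows were chr4:136886151-136886450 on the minus strand for C1qb, chr4:136892865-136893164 on the minus strand for C1qc and chr7:128062390-128062689 on the plus strand for Itgam.
C1qb: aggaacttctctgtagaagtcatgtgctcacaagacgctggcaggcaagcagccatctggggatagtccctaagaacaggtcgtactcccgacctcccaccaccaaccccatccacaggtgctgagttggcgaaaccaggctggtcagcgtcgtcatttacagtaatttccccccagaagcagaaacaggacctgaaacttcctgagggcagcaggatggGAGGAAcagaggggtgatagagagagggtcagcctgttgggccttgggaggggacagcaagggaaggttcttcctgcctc
C1qc: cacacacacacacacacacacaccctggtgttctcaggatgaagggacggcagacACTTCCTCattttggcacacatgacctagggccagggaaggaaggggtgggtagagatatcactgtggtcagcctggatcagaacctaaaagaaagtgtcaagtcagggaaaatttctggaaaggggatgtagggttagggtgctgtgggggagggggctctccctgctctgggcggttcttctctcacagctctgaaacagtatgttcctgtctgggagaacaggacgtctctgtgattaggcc
Itgam: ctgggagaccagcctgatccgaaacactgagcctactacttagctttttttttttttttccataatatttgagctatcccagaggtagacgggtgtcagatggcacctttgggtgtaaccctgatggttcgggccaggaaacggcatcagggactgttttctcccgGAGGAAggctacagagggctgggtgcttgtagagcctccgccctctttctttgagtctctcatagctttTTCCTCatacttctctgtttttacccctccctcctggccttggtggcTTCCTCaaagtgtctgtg
GAGGAA was found once in the C1qb window, once in the C1qc window and 3 times in the Itgam window, and not in the C3, C3ar1 and C5ar1 windows. It was held by 28.3% of the 32851 promoters of the table. The GAGGAAGT form, which contains GAGGAA, was found only in the C1qc window among the 6 and was held by 3.2% of all promoters. The interferon-stimulated response element was in none of the 6 and in 3.44% of all promoters. The AP-1 form TGANTCA was in the C3ar1 window and in 7.81% of all promoters, and TATAAA was in the C3 and C3ar1 windows and in 13.6% of all. Both strands were searched for each.

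The members are protein-coding genes, with positions given on mm10 from GENCODE M21. On chromosome 4, C1qb (ENSMUSG00000036905) spans 136880129 to 136886187, C1qc (ENSMUSG00000036896) 136889804 to 136893065 and C1qa (ENSMUSG00000036887) 136895917 to 136898803. C3 (ENSMUSG00000024164) lies on chromosome 17 at 57203970 to 57228136 and C3ar1 (ENSMUSG00000040552) on chromosome 6 at 122847138 to 122856161, both on the minus strand. C5ar1 (ENSMUSG00000049130) lies on the minus strand of chromosome 7 at 16246743 to 16259540, and Itgam (ENSMUSG00000030786) on its plus strand at 128062640 to 128118491. Itgb2 (ENSMUSG00000000290) lies on the plus strand of chromosome 10 at 77530252 to 77565708, and Serping1 (ENSMUSG00000023224) on the minus strand of chromosome 2 at 84765387 to 84775444.

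Depth was high, with library totals of 64538297 to 84114322 counts in App_HFD, 69772745 to 101709022 in App_NCD, 90220118 to 101737328 in WT_HFD and 98588561 to 217925484 in WT_NCD. App_NCD 553 stood apart, with 18928 genes above 0 against 27151 to 30617 in the other 15 libraries and 39.4% of its counts from mitochondrial genes against 1.22 to 4.62%. Results on the members are therefore given with and without it. Of the defining markers of the labelled oligodendrocyte lineage, Mog, which encodes a myelin protein, had group means of 629, 461, 673 and 640 CPM (the usual depth-scaled count, with TMM scaling) in App_HFD, App_NCD, WT_HFD and WT_NCD. App itself averaged 2356 ± 168 CPM in App_HFD and 2220 ± 102 in App_NCD, against 3113 ± 281 in WT_HFD and 3158 ± 671 in WT_NCD (SD, n = 4 each). Its log2 fold change did not pass the test in all 16 libraries (adjusted p = 0.152 on the high-fat diet and 0.0535 on the control diet, edgeR). A knock-in does not predict a level, so this does not check the genotype labels.

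Per length, the C1q genes stood far above the other members. On CPM per kb of exon, the order was C1qa, C1qb, C1qc, Itgam and Itgb2 in each of the 4 groups. C1qa had a mean level of 1414 CPM per kb in App_HFD, 1219 in App_NCD, 303 in WT_HFD and 378 in WT_NCD. Itgam had 97.6, 93.8, 29.0 and 36.7 CPM per kb in the same groups. For orientation, the myelin gene Mog had 369 CPM per kb in App_HFD, 271 in App_NCD, 395 in WT_HFD and 376 in WT_NCD, so that C1qa exceeded Mog in both App groups and lay near or below it in both wild-type groups. The receptors C3ar1 and C5ar1 came next, C3ar1 above C5ar1 in both App groups and below it in both wild-type groups. C3 and Serping1 were lowest among the 9 annotated members, with C3 above Serping1 in both App groups and below it in both wild-type groups. C3 had 3.81, 4.69, 1.31 and 1.06 CPM per kb in App_HFD, App_NCD, WT_HFD and WT_NCD, and Serping1 had 1.04, 1.05, 1.95 and 1.42.

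Genotype separated these genes on both diets. With high-fat feeding, 7 of the 10 entries rose in App libraries, namely C1qa, C1qb, C1qc, C3ar1, C5ar1, Itgam and Itgb2, and none fell (edgeR's quasi-likelihood test, Benjamini-Hochberg adjusted p under 0.05 over 21768 genes). Among all genes tested, 5.09% rose and 2.05% fell in that comparison, 7.14% in all. On the control diet, 5 rose, namely C1qb, C3, C3ar1, Itgam and Itgb2, and none fell, beside 6.5% and 1.88% of all genes, 8.39% in all. Without App_NCD 553 the control-diet count was 8 higher and 0 lower, with C1qa, C1qc and C5ar1 added (10.2% and 7.22% of all genes, 17.5% in all). The high-fat count was then 7 higher and 1 lower, with Serping1 added (10.8% and 8.54%, 19.3% in all). The median log2 fold change of the 10 entries was 1.90 on the high-fat diet and 1.73 on the control diet, where the medians of all genes tested were 0.01 and -0.02. On the high-fat diet every App library lay above every wild-type library for 8 members, as it did for 15.0% of all genes, while 10.0% had every App library below. On the control diet this held for C1qb, C3, C3ar1 and Itgb2, as for 7.66% of all genes (8.27% below), and without App_NCD 553 for 7 members, as for 14.5% (12.3% below). For C1qb, C3 and Itgb2, but not for C3ar1, the control-diet ranks with App_NCD 553 rested on TMM scaling. By library totals C1qb, C3 and Itgb2 in App_NCD 553 lay below WT_NCD 4. No member had every App library below. In these bulk libraries, fewer or more cells of a type and less or more RNA per cell cannot be told apart.

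The counts differed among tools. On the control diet DESeq2 called 8 members higher, beside 10.2% of all genes higher and 5.44% lower, and limma-voom called 8, beside 18.5% and 14.7%. For the high-fat diet both called 8 higher, with C3 added, and Serping1 lower, beside 7.07% and 4.45% of all genes with DESeq2 and 17.4% and 13.3% with limma-voom. Scaling by library totals gave 3 on the control diet (2.41% of all genes higher, 1.45% lower) and 5 on the high-fat diet (2.94%, 2.47%), and scaling to mature oligodendrocyte markers gave 8 (14.3%, 0.299%) and 7 (5.07%, 0.211%). A fit of the 8 compared libraries alone gave 3 on the control diet (2.4%, 0.0683%) and 8 higher and 1 lower on the high-fat diet (12.2%, 11.5%). An unadjusted p under 0.05 with a 2-fold change gave 8 on each diet, beside 8.9% higher and 2.55% lower on the control diet and 5.66% and 2.91% on the high-fat diet.

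**Figure D1:**
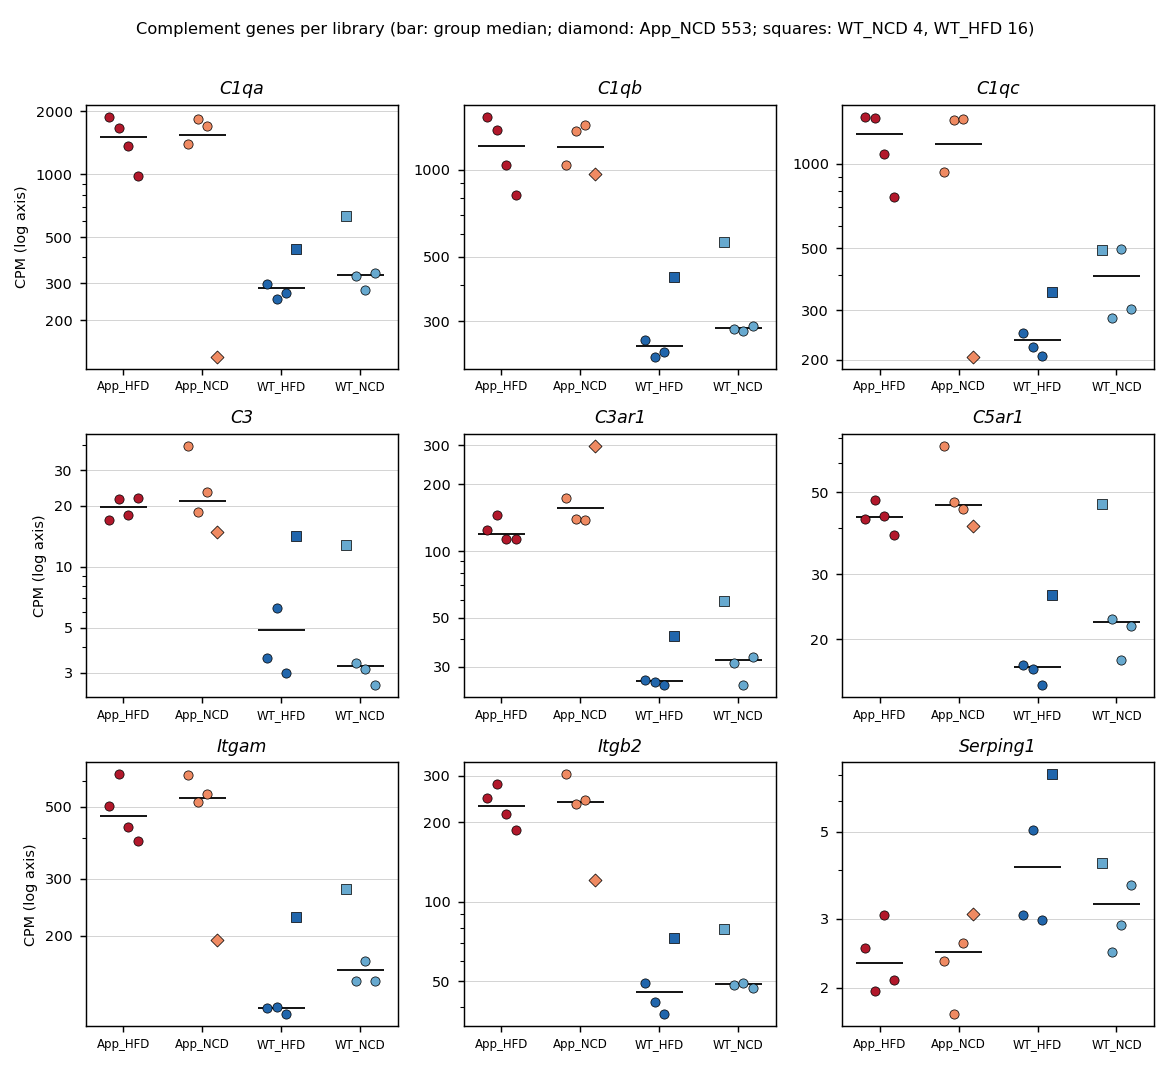
Level of the 9 annotated complement genes in CPM (log axis) in each of the 16 libraries, by group. Bars are group medians, the diamond is App_NCD 553 and the squares are WT_HFD 16 and WT_NCD 4. On the high-fat diet 8 of the 9 genes have no overlap between App and wild-type libraries, and Serping1 is the exception.

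The 3 genes of C1q rose together on the high-fat diet, and on the control diet C1qb did. C1qa had 1876, 1659, 1367 and 978 CPM in the App_HFD libraries and 1393, 1841, 1704 and 134 in the App_NCD libraries, against 297, 252, 271 and 440 in WT_HFD and 631, 325, 279 and 337 in WT_NCD. All App libraries but App_NCD 553 lay above all wild-type libraries, and App_NCD 553 lay below all of them. C1qb, for the B chain, had 1523, 1376, 1037 and 819 CPM in App_HFD and 1040, 1367, 1430 and 968 in App_NCD, against 258, 226, 234 and 425 in WT_HFD and 565, 281, 278 and 288 in WT_NCD. On TMM-scaled CPM App_NCD 553 was here the lowest of its group but still above every wild-type library. By library totals it lay below WT_NCD 4 (34089 counts in 71444546 against 132308 in 217925484). C1qc, for the C chain, had 1468, 1463, 1087 and 765 CPM in App_HFD and 935, 1429, 1446 and 205 in App_NCD, against 250, 222, 206 and 351 in WT_HFD and 493, 283, 498 and 303 in WT_NCD. As for C1qa, App_NCD 553 lay below all wild-type libraries and the other 7 App libraries above them.

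On the high-fat diet the log2 fold changes, App over wild type, were 2.22 ± 0.54 for C1qa (SE, adjusted p = 0.0198, edgeR), 2.06 ± 0.29 for C1qb (0.000408) and 2.22 ± 0.45 for C1qc (0.00661). On the control diet C1qb rose by 1.77 ± 0.29 (adjusted p = 0.00119, edgeR), while C1qa at 1.69 ± 0.53 (0.0618) and C1qc at 1.35 ± 0.44 (0.069) did not pass. Those 2 turned on App_NCD 553. Without it the control-diet values were 2.04 ± 0.28 for C1qa (adjusted p = 0.00014, edgeR), 1.83 ± 0.29 for C1qb (0.000476) and 1.66 ± 0.27 for C1qc (0.000625). The C1qa call on the high-fat diet was lost when App_HFD 547, App_HFD 559, WT_HFD 2, WT_HFD 3 or WT_HFD 15 was left out, with adjusted p of 0.0619, 0.0581, 0.0717, 0.0742 and 0.0709 (edgeR) and log2 fold changes of 2.08 to 2.18. In those fits App_NCD 553 was still present, and without App_NCD 553 the SE of C1qa on the high-fat diet was 0.27 against 0.54 with it.

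The proportions of the 3 chains were alike across most libraries although their sum differed several-fold. In 14 libraries C1qa made up 42.5 to 48.2% of the C1q sum per kb, C1qb 33.4 to 39.3% and C1qc 17.4 to 21.0%. WT_NCD 11 had 34.3% C1qa, 32.7% C1qb and 33.0% C1qc. App_NCD 553 had 11.4% C1qa, 79.1% C1qb and 9.4% C1qc, and no other library came near these shares. The rank of App_NCD 553 for C1q thus depended on the chain.

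**Figure D2:**
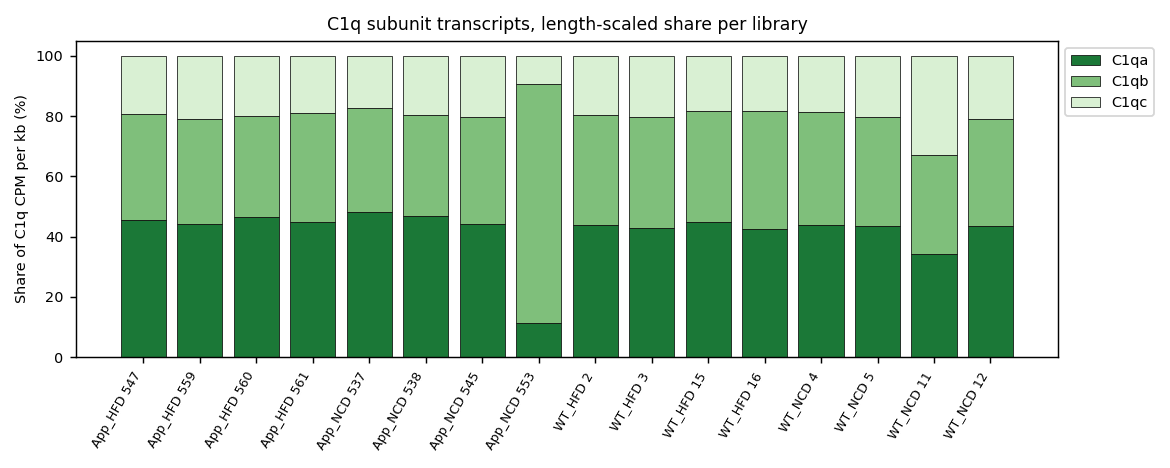
Share of C1qa, C1qb and C1qc in the sum of their CPM per kb (bars, %), one bar per library from App_HFD at the left to WT_NCD at the right. App_NCD 553, with 79.1% C1qb, and WT_NCD 11, with 33.0% C1qc, differ from the other 14 libraries.

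C3, the protein on which the pathways converge, had a low level in CPM here, though with 282 to 4170 counts per library. It had 16.9, 21.6, 18.01 and 21.8 CPM in App_HFD and 39.5, 18.6, 23.5 and 14.8 in App_NCD, against 3.52, 6.25, 2.99 and 14.2 in WT_HFD and 12.8, 3.33, 3.13 and 2.59 in WT_NCD. On TMM-scaled CPM no App library overlapped a wild-type library, and among wild-type libraries WT_HFD 16 and WT_NCD 4 stood high. App_NCD 553 had 522 C3 counts in a total of 71444546. WT_HFD 16 had 1419 in 90220118 and WT_NCD 4 had 2990 in 217925484, so by library totals App_NCD 553 lay below both. C3 rose by 2.14 ± 0.56 on the control diet (log2, SE, adjusted p = 0.0273, edgeR), and its 1.54 ± 0.55 on the high-fat diet did not pass (0.116). The control-diet call was lost without App_NCD 537, WT_NCD 5, WT_NCD 11 or WT_NCD 12, with adjusted p of 0.0665, 0.0904, 0.099 and 0.0886 for C3. For high-fat feeding C3 passed without WT_HFD 16, at 2.17 ± 0.54 (adjusted p = 0.0215, edgeR), and without WT_NCD 4, at 1.52 ± 0.42 (0.0446). DESeq2 also called C3 on the high-fat diet (1.51 ± 0.53, adjusted p = 0.0397), as did limma-voom with quality weights (1.85 ± 0.36, 0.00101).

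WT_HFD 16 and WT_NCD 4 also carried the highest summed level of 12 monocyte and neutrophil markers. The sum was 13.0 to 82.8 CPM in the 8 App libraries, against 327 CPM in WT_HFD 16, 411 in WT_NCD 4 and 22.9 to 51.8 in the other 6 wild-type libraries. S100a9, a granule protein of neutrophils, had 2.18 to 14.1 CPM in the App libraries, against 76.7 in WT_HFD 16, 116 in WT_NCD 4 and 4.56 to 13.3 in the other 6 wild-type libraries. At most 1 of the 12 markers was at 0 in any library other than App_NCD 553, which had 4 at 0. None of the 12 passed the test for genotype on either diet, and without App_NCD 553 1 fell on the high-fat diet. The list's median log2 fold change was -2.28 on the high-fat diet and -1.28 on the control diet, and 1 of the 12 values was positive on each. C3 was 2.59 to 6.25 CPM in those other 6 wild-type libraries. Without WT_HFD 16 and WT_NCD 4, a choice made after seeing the data, the C3 log2 fold change was 2.2 ± 0.34 on the high-fat diet and 3.00 ± 0.36 on the control diet (SE). These 2 libraries had the highest C3 of the wild-type libraries, so the choice itself fixed a larger fold change, and no p-value is given. They were also the highest of their groups for most other members, so the member counts without them share this limit. The count of members that rose was then 8 on the high-fat diet and 6 on the control diet, none fell, and 5.61% and 6.21% of all genes rose (2.08% and 1.18% fell). With App_NCD 553 left out too, 8 rose on each diet, beside 12.7% and 12.5% of all genes (9.0% and 7.69% fell).

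**Figure D3:**
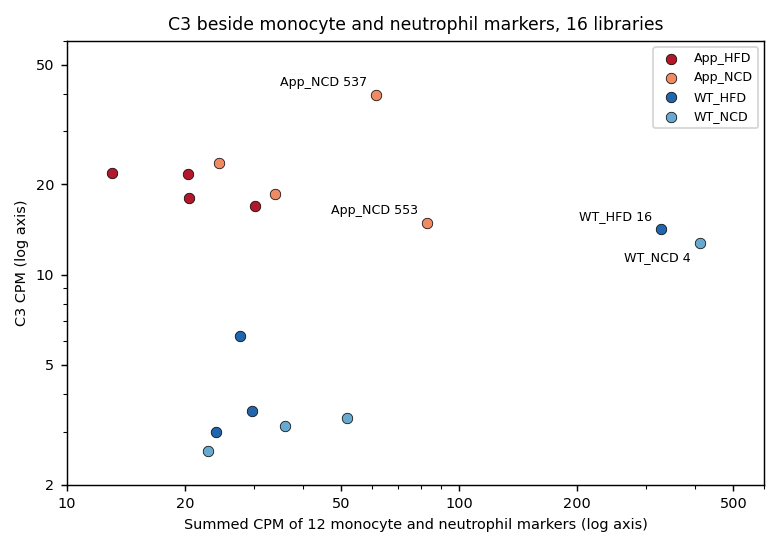
C3 level in CPM (vertical, log axis) against the summed CPM of 12 monocyte and neutrophil markers (horizontal, log axis), 1 point per library. WT_HFD 16 and WT_NCD 4 lie to the right of all others and hold 14.2 and 12.8 CPM of C3. On this TMM-scaled axis they lie above the 2.59 to 6.25 CPM of the other 6 wild-type libraries and below all 8 App libraries.

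The receptor for the C3a fragment rose on both diets. C3ar1 had 125, 146, 113 and 114 CPM in App_HFD and 174, 140, 138 and 299 in App_NCD, against 26.2, 25.7, 24.8 and 41.5 in WT_HFD and 59.6, 31.2, 24.8 and 33.1 in WT_NCD. Every App library was above every wild-type library, and App_NCD 553 was the highest of all on TMM-scaled CPM. By library totals App_NCD 537 (18319 counts in 101709022) lay above App_NCD 553 (10525 in 71444546). C3ar1 rose by 2.08 ± 0.30 on the high-fat diet (log2, SE, adjusted p = 0.000467, edgeR) and by 2.34 ± 0.30 on the control diet (0.000156), and by 1.99 ± 0.25 on the control diet without App_NCD 553. Both calls held whichever library was left out. C5ar1, whose product reads C5a, had a smaller fold change. It had 42.4, 47.5, 43.1 and 38.3 CPM in App_HFD and 66.8, 47.1, 45.0 and 40.5 in App_NCD, against 17.0, 16.6, 15.0 and 26.4 in WT_HFD and 46.6, 22.7, 17.5 and 21.7 in WT_NCD. On TMM-scaled CPM WT_NCD 4 lay within the App range, and the other 7 wild-type libraries lay below it.

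C5ar1 rose by 1.19 ± 0.27 on the high-fat diet (log2, SE, adjusted p = 0.0142, edgeR), and its 0.88 ± 0.27 on the control diet did not pass (0.0592). It passed on the control diet without App_NCD 553, at 0.94 ± 0.28 (adjusted p = 0.0303, edgeR), and without WT_NCD 4, at 1.23. On the high-fat diet the C5ar1 call was lost without App_HFD 559, WT_HFD 2, WT_HFD 3 or WT_HFD 15, with adjusted p of 0.0521, 0.0582, 0.0575 and 0.06. No test compared C3ar1 with C5ar1 directly.

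Both chains of complement receptor 3 rose. Itgam, for CD11b, had 505, 630, 434 and 393 CPM in App_HFD and 627, 516, 547 and 194 in App_NCD, against 120, 121, 115 and 228 in WT_HFD and 279, 145, 167 and 145 in WT_NCD. On TMM-scaled CPM App_NCD 553 fell within the wild-type range and the other 7 App libraries lay above it. Itgb2, for the shared β2 chain CD18, had 248, 279, 215 and 188 CPM in App_HFD and 304, 234, 242 and 121 in App_NCD, against 49.3, 41.7, 37.6 and 73.0 in WT_HFD and 78.8, 48.6, 49.1 and 47.1 in WT_NCD. On TMM-scaled CPM all App libraries lay above all wild-type libraries. By library totals App_NCD 553 (4274 counts in 71444546) lay below WT_NCD 4 (18447 in 217925484). Itgb2 rose by 2.2 ± 0.28 on the high-fat diet (log2, SE, adjusted p = 0.00017, edgeR) and by 2.01 ± 0.28 on the control diet (0.000338), and both calls held whichever library was left out.

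Itgam rose by 1.75 ± 0.34 on the high-fat diet (log2, SE, adjusted p = 0.0052, edgeR) and by 1.35 ± 0.34 on the control diet (0.0227), and by 1.58 ± 0.26 on the control diet without App_NCD 553 (0.000793). The control-diet call of Itgam was lost without App_NCD 537, WT_NCD 5, WT_NCD 11 or WT_NCD 12, with adjusted p of 0.0579, 0.0837, 0.0807 and 0.0838. The other entry with this symbol, ENSMUSG00000108596, is named Gm49368 in GENCODE M21 and overlaps Itgam on the plus strand of chromosome 7 (128062683 to 128128160, mm10), sharing 3450 of its 4803 exonic bases (71.8%) with it. It had 7.61, 5.59, 3.04 and 2.97 CPM in App_HFD and 9.58, 4.71, 5.13 and 308 in App_NCD, against 30.8, 2.84, 1.28 and 14.5 in WT_HFD and 0.59, 14.7, 0.577 and 17.7 in WT_NCD. In App_NCD 553 it exceeded the first Itgam ID, whose exons span 5024 bases, and in the other 15 libraries it lay below it. It was called on neither diet, and its control-diet log2 fold change was 3.28 with App_NCD 553 and -0.40 without it. How the authors' counting divided reads between the 2 IDs is not given in the sources used here, so the Itgam level is uncertain by that share. With both IDs summed, a choice made after seeing the data, Itgam rose by 1.65 ± 0.25 on the high-fat diet (adjusted p = 0.000776, edgeR) and by 1.52 ± 0.25 on the control diet (0.00122).

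Serping1, the one inhibitor among the members, did not rise with the rest. It had 2.52, 1.96, 3.07 and 2.10 CPM in App_HFD and 2.34, 1.72, 2.60 and 3.10 in App_NCD, against 3.06, 5.06, 2.98 and 7.00 in WT_HFD and 4.16, 2.47, 2.90 and 3.66 in WT_NCD. The groups overlapped on both diets. The log2 fold change was -0.91 ± 0.29 on the high-fat diet (SE, adjusted p = 0.0791, edgeR) and -0.44 ± 0.29 on the control diet (0.35). Without App_NCD 553 it passed on the high-fat diet, at -0.93 ± 0.27 (adjusted p = 0.0255, edgeR), and not on the control diet, at -0.60 ± 0.30 (0.175). DESeq2 called Serping1 lower on the high-fat diet (-0.94 ± 0.30, adjusted p = 0.0188), as did limma-voom (-0.78 ± 0.26, 0.0296). Without WT_HFD 16, the highest library, the value was -0.65 ± 0.28 (adjusted p = 0.219, edgeR). Of 8 endothelial markers 2 fell on each diet, beside 2.05% of all genes on the high-fat diet and 1.88% on the control diet. Without App_NCD 553, 4 fell on the high-fat diet and 5 on the control diet, beside 8.54% and 7.22% of all genes. The list had summed levels of 243 to 292 CPM in App_HFD and 182 to 293 in App_NCD, against 240 to 479 in WT_HFD and 223 to 418 in WT_NCD. None of the 8 was at 0 in any library. Over all 16 libraries the endothelial list had median log2 fold changes of -0.88 on the high-fat diet and -0.92 on the control diet. A list of 8 pericyte and fibroblast markers summed to 171 to 196 CPM in App_HFD and 118 to 168 in App_NCD. In WT_HFD it summed to 159 to 325 CPM, and in WT_NCD to 197 to 280. The part of either list in the Serping1 values was not tested.

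Diet moved no member past the test. In edgeR no gene of the 21768 was called for high-fat against control diet in App mice, for the same in wild-type mice or for the interaction of diet and genotype, so the background is 0.0% in each, with and without App_NCD 553. At an unadjusted p under 0.05, 2586 genes stood out for diet in App mice, 419 for diet in wild type and 639 for the interaction. Among the 10 entries ENSMUSG00000108596 alone did, for diet in App mice and the interaction, and not without App_NCD 553. Without that library C1qc did, for diet in wild type, with an adjusted p of 0.92 (edgeR). With a 2-fold change required too, the shares of all genes higher and lower were 0.969% and 3.8% for diet in App mice, 1.1% and 0.161% in wild type, and 0.326% and 2.06% for the interaction. DESeq2 called 82, 7 and 3 genes and limma-voom 161, 6 and 0, and no member was among them. For the 9 annotated members in App mice the log2 fold changes, high-fat over control diet, ran from -0.59 ± 0.29 for C3ar1 to 0.25 ± 0.43 for C1qc (SE), and without App_NCD 553 from -0.47 ± 0.58 for C3 to 0.12 ± 0.30 for Serping1. In wild-type mice they ran from -0.62 ± 0.43 for C1qc to 0.46 ± 0.29 for Serping1. High-fat and control libraries overlapped for every member in both genotypes. Every high-fat library lay above every control library for 3.23% of all genes in App mice and below for 2.46%, and for 1.57% and 0.951% in wild type (without App_NCD 553, 4.36% and 3.84% in App mice). These values do not show that diet had no effect on the members.

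The effect of genotype was also compared between diets directly. The interaction, high-fat minus control diet, was 0.87 ± 0.61 for C1qc (log2, SE), 0.53 ± 0.73 for C1qa, 0.29 ± 0.40 for C1qb, 0.40 ± 0.47 for Itgam, 0.32 ± 0.38 for C5ar1 and 0.19 ± 0.38 for Itgb2. It was -0.60 ± 0.76 for C3, -0.47 ± 0.41 for Serping1 and -0.26 ± 0.41 for C3ar1. The adjusted p was 0.851 or higher for each (edgeR), so a call on 1 diet and not on the other is not shown to be a difference between diets. Without App_NCD 553 the interaction of C1qc was 0.54 ± 0.37, and that of C3 was -0.77 ± 0.80.

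**Figure D4:**
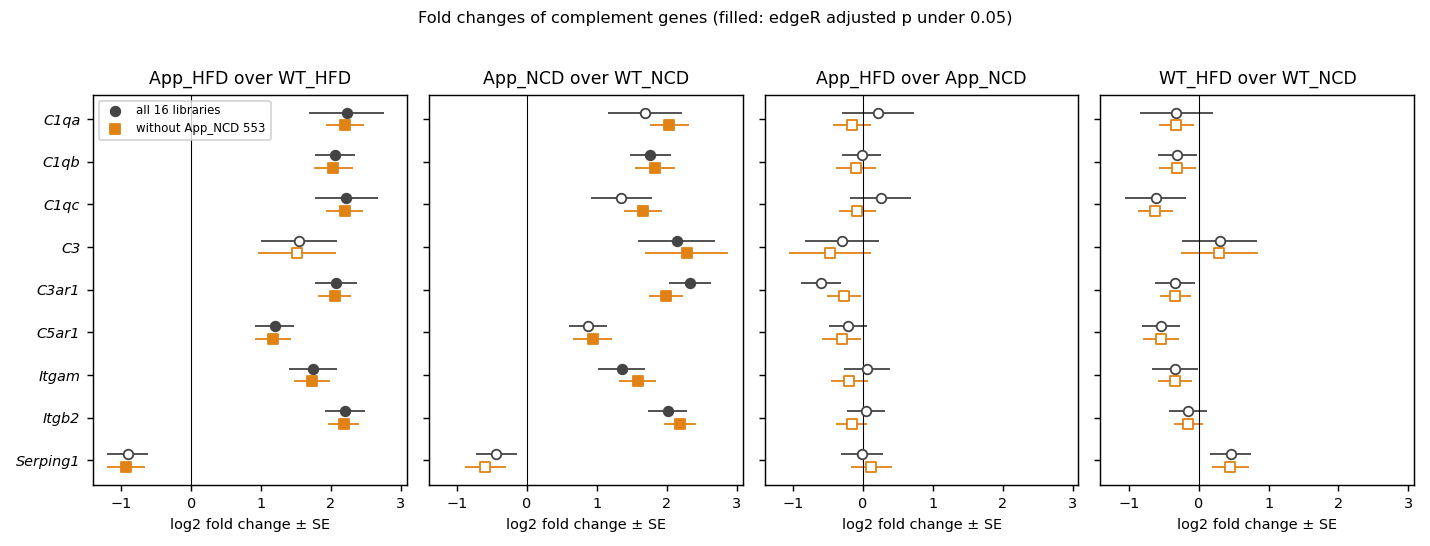
Log2 fold change ± SE (horizontal) of the 9 annotated members for genotype on each diet and for diet in each genotype, with all 16 libraries (circles) and without App_NCD 553 (squares). Filled symbols passed the test. Of the 9 genes, 8 lie to the right of 0 for genotype on both diets, Serping1 lies to the left, and no symbol is filled for diet.

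Markers of microglia were higher in the App preparations as well. Of 14 homeostatic microglia markers 10 rose on the high-fat diet and 8 on the control diet, none fell, and the median log2 fold changes were 1.14 and 0.93. Of all genes tested, 5.09% rose on the high-fat diet and 6.5% on the control diet. Their summed level was 6927 to 11500 CPM in App_HFD and 6397 to 10060 in App_NCD, against 2468 to 4723 in WT_HFD and 3331 to 5243 in WT_NCD. Of 12 pan-myeloid markers 10 rose on the high-fat diet and 9 on the control diet, with medians of 1.59 and 1.62. Their sum was 2348 to 3786 CPM in App_HFD and 3319 to 3492 in App_NCD, against 645 to 1289 in WT_HFD and 810 to 1481 in WT_NCD. No marker of either list was at 0 in any library. Within the microglia list Tmem119, a membrane protein of microglia, was 0.34 ± 0.48 on the high-fat diet and -0.35 ± 0.48 on the control diet (log2, SE) and was called on neither. It had 24.3 CPM in App_NCD 553 and 188.4, 230.5 and 243.4 in the rest of App_NCD, against 303.0, 167.1, 213.8 and 190.8 in WT_NCD. The negative value thus came with that library. Of 8 markers of border macrophages none was called on either diet, and of 15 mature oligodendrocyte markers none was called on either, with medians of -0.17 and -0.38. Without App_NCD 553, 1 border macrophage marker rose and 1 mature oligodendrocyte marker fell on the high-fat diet, 11 homeostatic and 12 pan-myeloid markers rose there, and 10 and 11 rose on the control diet. The shares of all genes were then larger too, with 10.8% higher and 8.54% lower on the high-fat diet and 10.2% higher on the control diet.

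The members were also set against these lists, in scalings where the chosen list stays level. That scaling shifted the median of all genes to -1.16 on the high-fat diet and -0.82 on the control diet for the homeostatic list, and to -1.73 and -1.50 for the pan-myeloid list. Relative to the homeostatic list, 6 members were higher and Serping1 was lower on the high-fat diet, where 1.49% of all genes were higher and 62.2% lower. On the control diet 4 were higher and Serping1 was lower, where 2.73% were higher and 38.1% lower. Without App_NCD 553 the counts were 6 higher and 1 lower on the high-fat diet (1.91% and 74.0% of all genes), and 7 higher and 1 lower on the control diet (2.34% and 66.5%). Relative to the pan-myeloid list, no member was higher and 1 was lower on the high-fat diet (0.786% and 83.0% of all genes), and 3 were higher and 1 lower on the control diet (1.25% and 71.5%). Without App_NCD 553 these counts were 1 higher and 2 lower on the high-fat diet (0.995% and 86.9%), and 2 higher and 1 lower on the control diet (1.24% and 80.9%). Relative to the homeostatic list and without App_NCD 553, WT_HFD 16 and WT_NCD 4, 7 were higher and 1 lower on each diet, beside 2.13% and 76.8% of all genes on the high-fat diet and 2.58% and 71.1% on the control diet.

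Without App_NCD 553 and relative to the homeostatic list, C1qa was higher by 1.06 ± 0.25 on the high-fat diet and 1.08 ± 0.27 on the control diet (log2, SE), Itgb2 by 1.08 ± 0.23 and 1.21 ± 0.24, and C3ar1 by 0.95 ± 0.23 and 1.04 ± 0.24. Itgam was higher by 0.62 ± 0.24 and 0.61 ± 0.26. C5ar1 was not called, at 0.07 ± 0.23 and 0.01 ± 0.25. Relative to the pan-myeloid list and without App_NCD 553, Itgb2 stayed higher on both diets, at 0.52 ± 0.24 and 0.69 ± 0.26, and C3 was higher on the control diet, at 0.97 ± 0.37, while the 3 C1q genes ran from 0.10 to 0.56 and were not called. C5ar1 was then -0.48 ± 0.25 and -0.50 ± 0.27, and Itgam was 0.08 ± 0.25 and 0.10 ± 0.27, none of them called. Serping1 was lower under each list scaling, by up to -2.54 ± 0.31 relative to the pan-myeloid list on the high-fat diet. These are values relative to lists that themselves rose, and the part of the microglial markers in the TMM values was not tested beyond them.

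**Figure D5:**
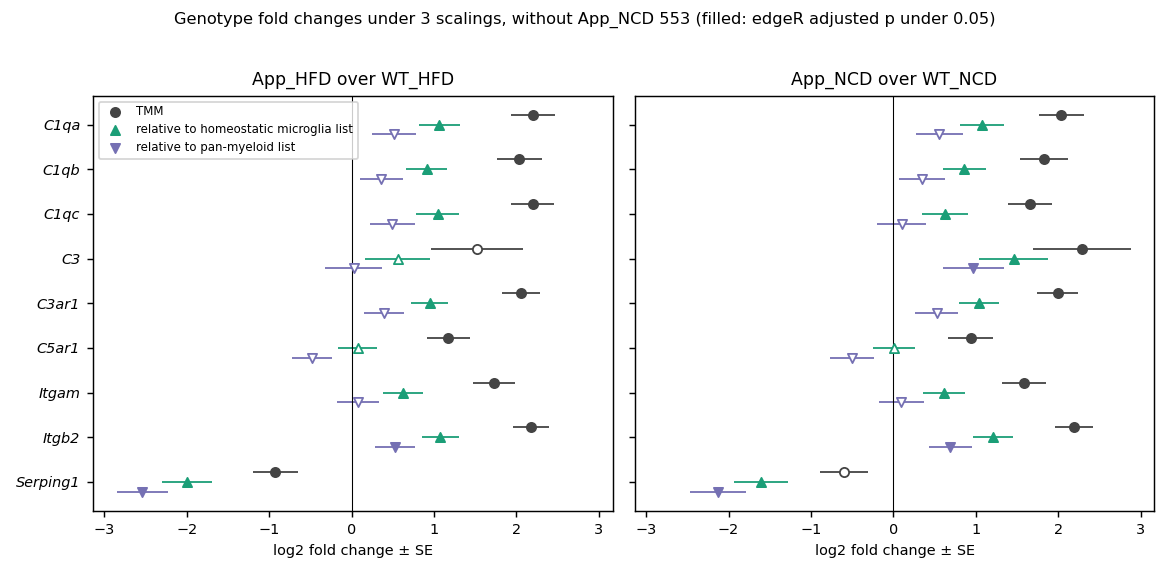
Genotype log2 fold change ± SE (horizontal) of the 9 annotated members on each diet without App_NCD 553, under TMM scaling (circles), relative to 14 homeostatic microglia markers (upward triangles) and relative to 12 pan-myeloid markers (downward triangles). Filled symbols passed the test. The symbols shift left from TMM to the homeostatic list to the pan-myeloid list, and Itgb2 is the one gene that is filled to the right of 0 under all 3 on both diets.

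Beyond the 9 members, 64 other complement genes were listed in 4 groups and 50 were tested. On the high-fat diet 4 rose and 4 fell, and on the control diet 5 rose and 2 fell (of all genes 5.09% rose and 2.05% fell on the high-fat diet, and 6.5% and 1.88% on the control diet). Without App_NCD 553 11 rose and 6 fell on the high-fat diet (10.8% and 8.54% of all genes), and 12 rose and 4 fell on the control diet (10.2% and 7.22%). Of the 9 other receptors 1 rose on each diet and 1 fell on the high-fat diet, and of 22 regulators 2 rose on each diet while 2 fell on the high-fat and 1 on the control diet. Among receptors, Itgax, for CD11c, the α chain of complement receptor 4 that also pairs with Itgb2, rose on both diets. Itgax had 699, 800, 558 and 508 CPM in App_HFD and 892, 674, 700 and 348 in App_NCD, against 6.19, 5.50, 4.34 and 7.54 in WT_HFD and 9.26, 4.60, 5.23 and 5.57 in WT_NCD. It rose by 6.77 ± 0.36 on the high-fat diet (log2, SE, adjusted p = 3.63e-08, edgeR) and by 6.73 ± 0.36 on the control diet (2.87e-08). Per length, Itgax had 134 and 136 CPM per kb in App_HFD and App_NCD, above Itgam, and 1.23 and 1.28 in WT_HFD and WT_NCD, below it. Cr2, a receptor of B cells and follicular dendritic cells, was a low-count gene that fell on the high-fat diet (-1.52 ± 0.42, adjusted p = 0.0401, edgeR), with means of 0.554 CPM in App_HFD and 1.59 in WT_HFD. Lrp1, a scavenger receptor that binds C1q, passed without App_NCD 553, at 0.80 ± 0.17 on the high-fat diet and 0.72 ± 0.18 on the control diet.

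Among the regulators, clusterin (Clu), which blocks the terminal pathway, fell by 0.91 ± 0.22 and 0.85 ± 0.22 on the high-fat and control diets (log2, adjusted p = 0.0185 and 0.0254, edgeR). Cd59a, an inhibitor of the membrane attack complex, fell by 0.85 ± 0.20 on the high-fat diet (adjusted p = 0.0149, edgeR).

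In the classical and lectin list of 17 genes, 13 were tested. C1s1, the protease that Serping1 blocks, had 1.44 to 1.60 CPM in App_HFD and 2.14 to 2.34 in App_NCD, against 2.86 to 4.71 in WT_HFD and 2.94 to 5.01 in WT_NCD, and it fell by 1.22 ± 0.21 and 0.74 ± 0.21 on the high-fat and control diets (log2, adjusted p = 0.0023 and 0.043, edgeR). Masp1, a protease of the lectin pathway, rose by 0.90 ± 0.22 and 1.56 ± 0.23. Colec12, a collectin scavenger receptor, rose by 1.09 ± 0.23 on the control diet. C4b, for the protein C4 that C1s cleaves, had 361 to 509 CPM in App_HFD and 345 to 398 in 3 App_NCD libraries, against 173 to 201 in WT_HFD and 165 to 212 in WT_NCD, while App_NCD 553 had 57.6. It passed without App_NCD 553, at 1.11 ± 0.12 on the high-fat diet and 1.00 ± 0.12 on the control diet (adjusted p = 1.1e-05 and 5.98e-05, edgeR), together with its close copy C4a, and reads may be split between those copies. Of the 6 alternative and terminal pathway genes tested none was called on either diet with or without App_NCD 553. Cfp, for properdin, averaged 8.62 CPM over the 16 libraries.

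The genes whose pattern over the 16 libraries was most like that of a member were ranked by the root mean square difference of centred log2 CPM among 14820 genes. For C1qa they were Cd14 (0.18), H2-DMa (0.198), Lag3 (0.201), Gdf15 (0.253) and Ier3 (0.256). For Itgam they were Ang (0.124), Atf3 (0.154), Sirpa (0.154), Vsir (0.158) and Nckap1l (0.165). For C3 they were Top2a (0.405) and Aspm (0.428), both genes of cell division, with Ccnb2 (0.429), Ckap2 (0.432) and Cdk6 (0.44). For Serping1 they were Pecam1 (0.288), Cnn2 (0.292), Tenm2 (0.304), Gimap8 (0.308) and Ctgf (0.31). Over the 15 other libraries 1 of 5 was shared for C1qa, C3 and Itgam and 2 of 5 for Serping1, and the gene closest to C1qa was C1qb (0.118).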

How the data were processed

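The deposited table held estimated counts per gene, made by the authors with fastp 0.23.2, HISAT2 2.2.1 (mm10), StringTie 2.2.1 and bedtools 2.25.0, per the submitters' processing notes. The annotation they counted against is not given in the sources used here. Deposited values were whole numbers, so rounding changed nothing. Of 53801 IDs, 99.7% were in GENCODE M21, which gave coordinates and exon lengths. The 9 members, the gene lists, the motifs and the tests were chosen with earlier results of these data known. All 9 members are named. Other complement genes are named by smallest adjusted p (up to 10 per genotype comparison) or highest mean CPM (up to 4 per list), like genes as the 5 nearest to 4 members.

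Counts were filtered with filterByExpr, scaled by TMM and tested with edgeR 4.0.16 (limma 3.58.1, R 4.3.3) in a quasi-likelihood fit with 1 mean per group over all 16 libraries (residual degrees of freedom 12), robust dispersions and Benjamini-Hochberg adjustment over 21768 genes (22322 without App_NCD 553). The common biological coefficient of variation was 36.5%. CPM was computed from TMM-scaled totals, and log2 CPM used a prior count of 0.5. The procedure was tested on simulated data. Alternatives included DESeq2 1.42.0, limma-voom, other scalings and filters, and each library left out in turn. The labels give no batch. Some genes of these lists are not reported here.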

Additional observations from a re-analysis of the deposited data

Results flagged for a closer look

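By Dixon's gap test, 1 library lay far from the other 3 of its group in 9 of the 40 gene and group combinations examined. The nominal rate of about 1 in 20 holds for independent combinations. All flags but that of ENSMUSG00000108596 lay in WT_HFD 16 or WT_NCD 4, so the 40 cannot be taken as independent. The share of all genes flagged by this rule is not given here, so no excess over chance is shown for the members. In WT_HFD 16, the highest of WT_HFD, the levels were 425.2 CPM for C1qb, 41.5 CPM for C3ar1 and 228.4 CPM for Itgam. In WT_NCD 4, the highest of WT_NCD, they were 631 CPM for C1qa, 565.3 CPM for C1qb, 12.8 CPM for C3, 279.4 CPM for Itgam and 78.8 CPM for Itgb2. These 2 libraries also held the highest monocyte and neutrophil marker sums, 327 CPM in WT_HFD 16 and 411 CPM in WT_NCD 4, and the highest homeostatic microglia sums among wild-type libraries, 4723 and 5243 CPM. The part of either in the complement levels was not tested. ENSMUSG00000108596, the ID that overlaps Itgam, had 307.8 CPM in App_NCD 553, where the other 3 App_NCD libraries had 9.58, 4.71 and 5.13 CPM.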

How the results depend on the processing

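No paired analysis was possible because the groups have no library number in common. On the control diet, where 5 members were called, the count was 8 with DESeq2, with limma-voom, with scaling to the oligodendrocyte list and with an unadjusted p and a 2-fold change, and 3 with library totals or with the 8 compared libraries alone. It was 8 without App_NCD 553, WT_HFD 16 and WT_NCD 4, 8 relative to the homeostatic microglia list without App_NCD 553 or without all 3 libraries, and 3 relative to the pan-myeloid list without App_NCD 553. On the high-fat diet, where 7 were called higher, the count relative to the pan-myeloid list was 1, which was Serping1 lower, and relative to that list without App_NCD 553 it was 3, of which 1 was higher and 2 lower. Leaving out 1 library gave 3 to 8 calls on the control diet, 5 to 8 on the high-fat diet, and 0 to 0 for diet and the interaction. The share of all genes called moved too, so these ranges are not a trait of the members alone. Without App_NCD 553 it went from 8.39% to 17.5% on the control diet and from 7.14% to 19.3% on the high-fat diet. With an unadjusted p and a 2-fold change, diet in App mice and the interaction had 1 each. Relative to the pan-myeloid list Itgam turned to -0.11 on the control diet, and C5ar1 to -0.48 on the high-fat diet with and without App_NCD 553 (log2). Scalings to a list change what is held level, and the cause of the other shifts was not tested. Of 1735 member fold changes recomputed over 35 alternatives, 1636 kept their call or lack of one, 42 lost the call, 54 gained it and 3 reversed. Of the 1636, 96 changed sign while called in neither fit and the rest kept their direction. The interaction was not run with the compared groups alone.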
